A study of Homo sapiens with 6 samples.

Results

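Krüppel-like factors are transcription factors that bind GC-rich and CACCC-type DNA through zinc fingers at the carboxyl end of the protein. The mRNAs of 7 of them, KLF2, KLF3, KLF4, KLF6, KLF7, KLF10 and KLF13, were examined in MCF10A cells, an established line of non-tumorigenic human mammary epithelial cells, with and without growth factors. The genes were taken by name from the 19198 genes listed in the deposited RNA-Seq table, and KLF5 was left out of the group by definition. The 3 control samples were grown in DMEM:F12 with 5% horse serum, 10 µg/ml insulin, 20 ng/ml EGF, 100 ng/ml cholera toxin and 0.5 µg/ml hydrocortisone. The 3 growth factor-depleted samples had the same basal medium and 5% horse serum, but none of these 4 additives, so EGF was removed together with the others and serum stayed in both arms. The labels name no transgene, knockdown or clone for any of the 6 samples. Depletion of these factors was used in the study as a way to induce epithelial to mesenchymal transition without added TGFβ. How many days these 6 samples were depleted is not stated in the sources used here. The labels number the samples as replicates, but do not say whether they came from separate cultures, so that p-values measure the spread between these samples only.

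Within the family, KLF2, KLF4, KLF6 and KLF7 are best known as activators that can recruit acetyltransferases, KLF3 recruits the corepressor CtBP, and KLF10 and KLF13 recruit the corepressor SIN3A. Several of them are short-lived, early-responding regulators of proliferation and differentiation. In epithelia KLF4 is known for barrier formation and growth arrest, whereas KLF2 is better known from endothelium and T cells, where it is associated with quiescence.

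The values are normalized counts, the reads of a gene divided by a size factor of the library, with no division by gene length. Reads on genes ranged from 7472418 to 28672630 per sample, and 3 reads corresponded to 1.76 to 6.71 normalized counts, a limit that covers counting error only. The labels call the cells luminal ductal, yet 3 of 9 luminal markers, PGR, ELF5 and KIT, are not listed, whereas all 6 basal markers are. The summed basal markers reached 42471 to 65489 normalized counts in control samples and 40940 to 148153 in depleted ones, with TP63 called lower, and the summed luminal markers 5538 to 15566 and 17240 to 29139, with KRT19 called lower. In each list 2 tested markers had positive and 4 had negative log2 fold changes. The positive ones were not called, with ratios of means of 6.43 for KRT17, 4.41 for KRT14, 1.98 for KRT8 and 2.01 for KRT18. KRT17 did not overlap and made up 123480 of the 148153 in depleted replicate 3. Negative but not called were the basal KRT5 (-2.04), ITGA6 (-1.15) and ITGB4 (-0.20). The same held for the luminal ESR1 (-2.99), FOXA1 (-0.72) and GATA3 (-0.28). Of these, ITGA6, ESR1 and FOXA1 did not overlap. KRT5 was at 562 in depleted replicate 1, against 10908 and 14996 in the other depleted samples. Its control values were 38503, 12739 and 13008. The calls of TP63 and KRT19 ended without control replicate 1 and without depleted replicate 3, that of TP63 also without control replicate 2 and that of KRT19 also without depleted replicate 2 (limma adjusted p up to 0.0668 and 0.0914). Of 4 adipocyte markers 2 are listed, and they summed to 50.1 to 179 and 15.1 to 33.5. Depleted replicate 1 stood apart from the other samples in CDH1, the gene of E-cadherin, with 610 normalized counts against 12961 to 20039 in the other 5 samples, and control replicate 3 had the largest positive correlation (Spearman, across 13035 genes) between transcript length and deviation from the gene mean, at 0.366. The largest negative correlation of this kind was -0.358, in control replicate 2. Fold changes of the KLF genes are therefore given with each sample left out as well. A fall in cell number of a given type and a fall in RNA per cell cannot be told apart in such bulk samples.

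Without growth factors a single member, KLF2, passed the test for differential expression. Differential expression was tested with limma on log2(normalized count + 1) for 16988 genes, and calls needed both a change of at least 2-fold and a p, adjusted by Benjamini-Hochberg, under 0.05. All 7 members had enough signal to be tested, 1 was called higher and 0 were called lower without growth factors. KLF2 passed the minimum mean of 10 normalized counts, taken over all samples, only through its depleted samples. Its mean was 3.03 in control, 86.5 in depleted and 44.8 over all samples. With no filter KLF2 was also called (limma adjusted p = 0.00308). Of all genes tested, 4.36% were called higher and 1.97% lower, and 2 members, KLF2 and KLF7, had an unadjusted p under 0.05, both higher, as did 20.0% of all genes in either direction. With edgeR and with DESeq2 on recovered reads the count of members called lower was also 0 and that called higher was also 1. The median log2 fold change over the 7 members was 0.01, against -0.03 over all genes, with 4 positive and 3 negative. The 3 control and 3 depleted values did not overlap for 1 member, KLF2, which was higher; 13.5% of all genes tested were non-overlapping in that direction and 12.1% in the other.

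**Figure D1:**
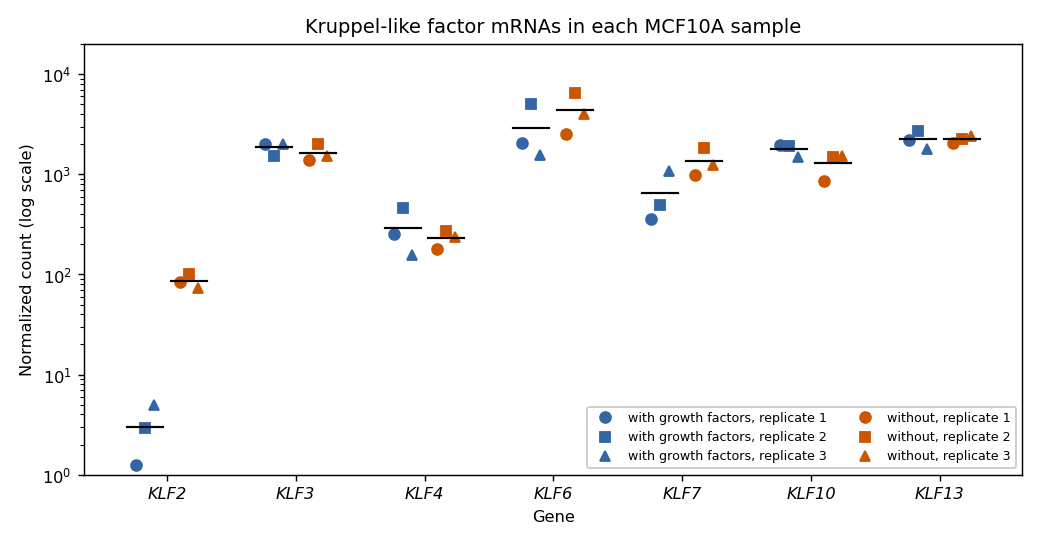
Normalized counts (vertical axis, log scale) of the 7 Krüppel-like factor genes (horizontal axis) in each MCF10A sample. Blue symbols are samples with growth factors, orange symbols samples without, the symbol shape gives the replicate number and horizontal lines are means of 3 samples. KLF2 lies between 1.25 and 4.92 in blue and between 73.8 and 101.6 in orange, and the 2 colours overlap for every other gene.

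KLF2 (ENSG00000127528.5, hg38 chr19:16324826-16328685, plus strand) was close to the detection limit with growth factors and present in every depleted sample. Control samples 1 to 3 held 1.25, 2.93 and 4.92 normalized counts, which are 1, 5 and 5 reads, and the depleted samples held 84.2, 101.6 and 73.8, which are 92, 155 and 33 reads. Every depleted value was above every control value, and the spread among depleted samples was small beside the gap. The means were 3.03 ± 1.83 (SD, n = 3) and 86.5 ± 14.1 (SD, n = 3), a ratio of 28.5. On the log2 scale with a pseudocount of 1, which understates the change of a gene this low, KLF2 rose by 4.54 (SE 0.59, 95% interval 3.18 to 5.89, limma adjusted p = 0.00389). Summed over each group there were 11 reads in control and 280 in depleted samples, a rate ratio of 29.2 with an exact 95% counting interval of 16.1 to 59.3. This interval covers counting error only and leaves out the spread between samples, which the limma interval includes. Leaving out each sample in turn gave log2 fold changes of 4.17 to 4.87 and adjusted p-values of 0.00287 to 0.0346 (limma), so the call held in each of the 6. Without depleted replicate 1, the sample low in CDH1, the log2 fold change was 4.55 with an adjusted p of 0.0151 (limma).

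Markers of cells in which KLF2 is usually high were read beside it. Of 4 endothelial markers 3 are listed, TEK is not, and their summed level was 100 to 1009 normalized counts in control and 240 to 1610 in depleted samples. CDH5, the endothelial cadherin, was 8.77, 4.10 and 4.92 in control and 25.6, 118.7 and 100.6 in depleted samples, and was called higher (log2 fold change 3.37, limma adjusted p = 0.0282), although the call ended without control replicate 1 or 2 or depleted replicate 2 or 3, with adjusted p-values up to 0.148 (without depleted replicate 2). CDH5 passed the minimum mean only through its depleted samples, with means of 5.93 in control and 81.6 in depleted samples. PECAM1 was not called and VWF, at 0.586 to 13.4 normalized counts, was below the minimum mean for testing. Among the leukocyte markers CD3E and CD68 are not listed, LYZ was not called, and PTPRC was at most 1.97 normalized counts in control and 10.1 to 13.8 in depleted samples. Of 8 fibroblast markers 6 were called higher, COL1A1, COL1A2, COL3A1, LUM, PDGFRA and PDGFRB, against 4.36% of all genes tested. DCN and FAP were not called (limma adjusted p of 0.0891 and 0.0505). All 8 were non-overlapping and higher, against 13.5% of all genes tested. LUM, PDGFRA and PDGFRB passed the minimum mean only through their depleted samples, with control means of 1.58, 0.941 and 6.95. PDGFRB was at 3322 in depleted replicate 1 and at 349 and 447 in the other depleted samples. The list summed to 813 to 1721 in control and 15868 to 35315 in depleted samples. The part of these marker differences in the KLF2 result was not tested.

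The 250 bases before the RefSeq start of KLF2 and of KLF4 (GRCh38.p14) are shown because both genes are known targets of ERK5-activated MEF2 factors and only KLF2 was called here. The difference between the responses of both genes was not tested. The sequences run 5′ to 3′ on the strand of the gene, chr19:16324576-16324825 (plus) for KLF2 and chr9:107489770-107490019 (minus) for KLF4, and capitals mark a match to the MEF2 consensus.
KLF2: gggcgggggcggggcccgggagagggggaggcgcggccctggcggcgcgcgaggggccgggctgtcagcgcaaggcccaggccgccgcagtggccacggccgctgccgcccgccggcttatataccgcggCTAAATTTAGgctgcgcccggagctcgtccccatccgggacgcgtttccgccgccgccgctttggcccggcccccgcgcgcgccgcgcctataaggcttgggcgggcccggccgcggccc
KLF4: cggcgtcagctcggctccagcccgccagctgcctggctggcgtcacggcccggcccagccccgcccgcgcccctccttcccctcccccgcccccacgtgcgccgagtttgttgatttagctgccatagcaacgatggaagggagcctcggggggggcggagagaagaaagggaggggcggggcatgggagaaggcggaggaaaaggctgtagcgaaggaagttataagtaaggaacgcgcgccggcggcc
The KLF4 window lies inside the Gencode span of KLF4 (chr9:107484852-107490482), whereas the KLF2 window ends at the base before the span of KLF2. The bases before the Gencode start of KLF4 were not searched. The KLF2 window holds 1 match to the MEF2 consensus, which starts 120 bases before the RefSeq start, and the KLF4 window holds 0. Of 35116 RefSeq promoter windows of the same length, 2.8% contain such a match on either strand. Both windows hold 4 matches to the GC box GGGCGG, a motif of Sp and Krüppel-like factors found in 42.6% of all windows, and 0 to CACCC, found in 54.7%. The cyclic AMP response element half-site TGACG, found in 21.2%, has 2 matches in KLF4 and 0 in KLF2. KLF6, KLF7 and KLF13 also have RefSeq entries, and none of those 6 windows holds a MEF2 match. Of these, the KLF7 windows lie inside the Gencode span of KLF7 and the KLF6 window partly inside that of KLF6. A match is a run of letters, and neither binding nor its absence follows from it.

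KLF7 (ENSG00000118263.13, chr2:207074137-207173856, minus strand), known from neuronal development, had the next highest fold change, but did not pass the test. Control values were 356, 499 and 1086 and depleted values 973, 1810 and 1243 normalized counts. Control replicate 3 lay above depleted replicate 1, so that the groups overlapped. The means were 647 ± 387 (SD, n = 3) and 1342 ± 427 (SD, n = 3), a ratio of 2.07, with a log2 fold change of 1.17 (SE 0.44, 95% interval 0.15 to 2.18, limma adjusted p = 0.184). Without control replicate 3 the log2 fold change was 1.62 (SE 0.33) with a limma adjusted p of 0.0217, and KLF7 became the second member called. With any other sample left out KLF7 was not called. When transcript length and GC content were corrected for, KLF7 was also not called (log2 fold change 1.10, limma adjusted p = 0.126). The noncoding KLF7-IT1 lies inside KLF7 on the same strand (chr2:207120884-207122044), so reads from shared bases could belong to either gene. It had 2.51, 11.7 and 48.2 normalized counts in control and 24.7, 89.8 and 22.4 in depleted samples, and was not called (log2 fold change 1.55, limma adjusted p = 0.457).

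KLF6 (ENSG00000067082.13, chr10:3775996-3785281, minus strand), a widely expressed factor that responds early to injury and growth signals, was at 2048, 4997 and 1566 normalized counts in control and 2544, 6482 and 4034 in depleted samples. Replicate 2 was the highest of its group in both conditions, and the groups overlapped. The means of 2870 ± 1858 (SD, n = 3) and 4353 ± 1988 (SD, n = 3) differed by less than 1 SD of either group, and the log2 fold change was 0.68 (SE 0.50, 95% interval -0.47 to 1.84, limma adjusted p = 0.522). It ran from 0.34 without control replicate 3 to 1.18 without control replicate 2, and KLF6 was called in none of the 6 fits with a sample left out.

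KLF4 (ENSG00000136826.13, chr9:107484852-107490482, minus strand) was at 252, 466 and 156 normalized counts in control and 181, 272 and 237 in depleted samples. The control samples enclosed all depleted values. The means were 291 ± 158 (SD, n = 3) and 230 ± 45.8 (SD, n = 3), and the log2 fold change of -0.22 (SE 0.44, 95% interval -1.23 to 0.79, limma adjusted p = 0.846) turned to 0.19 without control replicate 2.

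KLF3 (ENSG00000109787.11, chr4:38664197-38701517, plus strand), the CtBP-dependent repressor, was at 2021, 1528 and 2007 normalized counts in control and 1384, 1999 and 1532 in depleted samples. The ranges were nearly the same, the means were 1852 ± 280 (SD, n = 3) and 1638 ± 321 (SD, n = 3), and the log2 fold change was -0.18 (SE 0.28, 95% interval -0.82 to 0.45, limma adjusted p = 0.780), or -0.34 to -0.07 with single samples left out. KLF3-AS1, a noncoding gene on the opposite strand (chr4:38602438-38664926), overlaps the start of KLF3. It was at 6.27, 8.79 and 21.6 in control and 36.6, 25.6 and 44.7 in depleted samples. These values did not overlap, but the gene was not called (log2 fold change 1.61, SE 0.62, limma adjusted p = 0.192). The libraries were strand-specific, but the strand setting of the read counting is not given in the sources used here, so reads over the shared bases cannot be assigned with certainty.

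KLF10 (ENSG00000155090.13, chr8:102648784-102655725, minus strand), first known as a TGFβ-inducible early gene, was at 1964, 1903 and 1479 normalized counts in control and 849, 1476 and 1534 in depleted samples. It was lowest in depleted replicate 1, and the other depleted values lay at the level of control replicate 3. The means were 1782 ± 264 (SD, n = 3) and 1286 ± 380 (SD, n = 3), with a log2 fold change of -0.51 (SE 0.32, 95% interval -1.23 to 0.22, limma adjusted p = 0.436), which was -0.23 without depleted replicate 1 and -0.66 without depleted replicate 3.

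KLF13 (ENSG00000169926.8, chr15:31326835-31435665, plus strand), a regulator of CCL5 in T cells, was at 2207, 2731 and 1806 normalized counts in control and 2074, 2228 and 2399 in depleted samples. Its means of 2248 ± 464 (SD, n = 3) and 2234 ± 163 (SD, n = 3) were the closest among the members. The log2 fold change was 0.01 (SE 0.27, 95% interval -0.61 to 0.63, limma adjusted p = 0.993), and it changed sign without control replicate 3 (-0.14) or depleted replicate 3 (-0.04) and when transcript length and GC content were corrected for (-0.20).

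**Figure D2:**
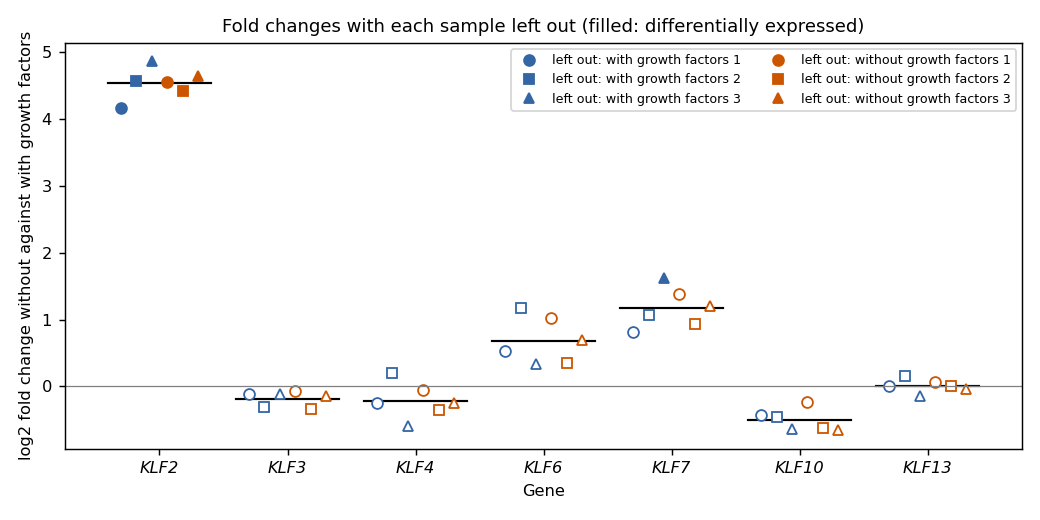
Log2 fold change without against with growth factors (vertical axis) of each member (horizontal axis) with 1 of the 6 samples left out. Colour and shape give the sample left out, filled symbols are fits in which the gene was called and black lines show the value with all 6 samples. KLF2 stays between 4.17 and 4.87 and is filled each time, and KLF7 is filled once, at 1.62 without control replicate 3.

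Levels of different members can be compared only per length, and were expressed as normalized counts per kb of merged exons. Merged exons exceeded the longest transcript unevenly, with 6139 against 4590 bases for KLF6, 9429 against 6845 for KLF13 and 3821 against 3659 for KLF10. The order may therefore depend on the length used, and other lengths were not tried. In control samples KLF6 and KLF10 had the highest means, at 468 ± 303 and 466 ± 69.2 per kb (SD, n = 3), and their ranges overlapped. KLF3 at 274 ± 41.4 and KLF13 at 238 ± 49.2 followed, also overlapping, with every KLF3 value below every KLF10 value. The KLF6 values, 255 to 814, also overlapped those of KLF3, 226 to 299, and KLF13, 192 to 290, so that KLF6 was not separated from either, and in control replicate 3 KLF3 was above KLF6. KLF4 at 79.6 ± 43.3 and KLF7 at 67.3 ± 40.2 overlapped, and KLF2 at 1.08 ± 0.651 was far below. Without growth factors the order was KLF6 at 709 ± 324, KLF10 at 337 ± 99.3, KLF3 at 242 ± 47.4, KLF13 at 237 ± 17.2, KLF7 at 140 ± 44.4, KLF4 at 62.8 ± 12.5 and KLF2 at 30.7 ± 4.99 per kb. Of these neighbours KLF10 and KLF3, and KLF3 and KLF13, overlapped between samples, and the others did not. KLF7 and KLF4 exchanged places between the conditions, but their control ranges overlapped. KLF2 remained the lowest member per length also after its rise, with 0.0299, 0.0517 and 0.135% of the summed per-kb level of the 7 members in control samples and 2.41, 1.59 and 1.49% in depleted ones.

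The summed per-kb level was 1486, 2008 and 1287 in control and 1242, 2272 and 1759 in depleted samples, so that the groups overlapped and replicate 2 was highest in both. KLF6 divided by KLF10, per kb, was 0.649, 1.63 and 0.659 in control and 1.86, 2.73 and 1.64 in depleted samples. This ratio was chosen after its values were seen and is a description only.

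**Figure D3:**
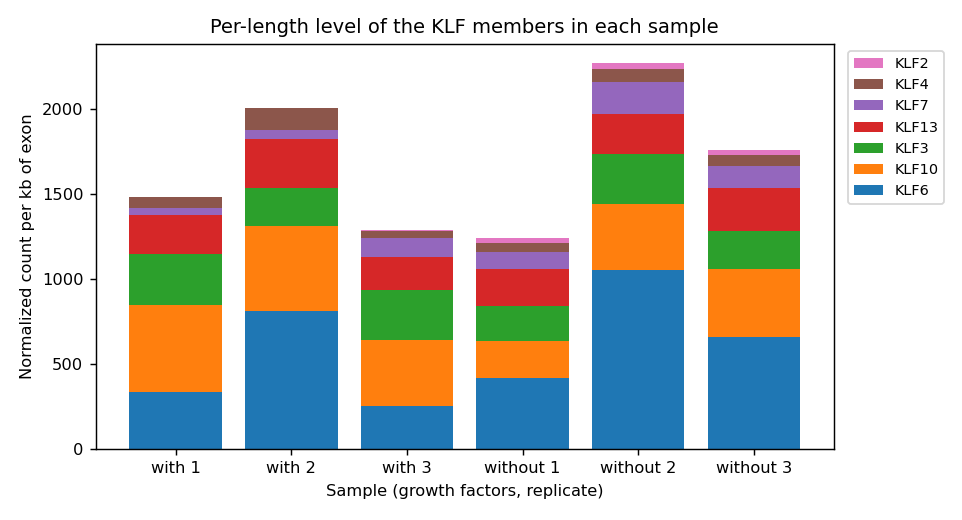
Stacked bars of the normalized count per kb of exon (vertical axis, from 0) of the 7 members in each sample (horizontal axis, growth factor condition and replicate). KLF6 and KLF10 make up the lowest bar segments, replicate 2 has the tallest bar in each condition (2008 with and 2272 without growth factors), and KLF2 is visible as a thin top segment only without growth factors.

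The rest of the Krüppel-like and SP family was read beside the members. Of 20 further family genes 13 are listed and were tested, while KLF1, KLF14, KLF15, KLF18, SP5, SP7 and SP9 are not listed. One gene, KLF17, was called higher and 0 were called lower by limma, against 4.36% and 1.97% of all genes tested. Like KLF2, KLF17 passed the minimum mean only through its depleted samples, with means of 0.523 in control and 29.9 in depleted samples. Of the 13 genes 4 had an unadjusted p under 0.05, against 20.0% of all genes, and the median log2 fold change was -0.10. KLF17 was at 0, 0.586 and 0.984 normalized counts (0, 1 and 1 reads) in control and 69.6, 11.1 and 8.94 (76, 17 and 4 reads) in depleted samples. Against the floor of 3 reads per library, averaged over the controls, it was at least 10.6-fold higher, and at least 3.56-fold higher without depleted replicate 1, which holds most of its reads. Its limma adjusted p was 0.0470 with all samples, 0.0696 with the replicate number as a block, and 0.0282 to 0.140 over 13 alternative limma fits, of which 9 lost the call, including those without control replicate 1 (0.140), control replicate 2 (0.105), depleted replicate 2 (0.120) and depleted replicate 3 (0.0921). The adjusted p was 0.0358 with edgeR and 0.00165 with DESeq2. Without depleted replicate 1 its mean fell below the testing minimum. KLF5, at 4890 to 5726 in control and 2131 to 2925 in depleted samples, and KLF8, at 333 to 1011 and 156 to 252, were named after their values were seen. They were the 2 of 13 family genes whose groups did not overlap in the lower direction, against 12.1% of all genes tested. Neither passed the test, with log2 fold changes of -1.10 (limma adjusted p = 0.0521) and -1.20 (0.206).

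**Figure D4:**
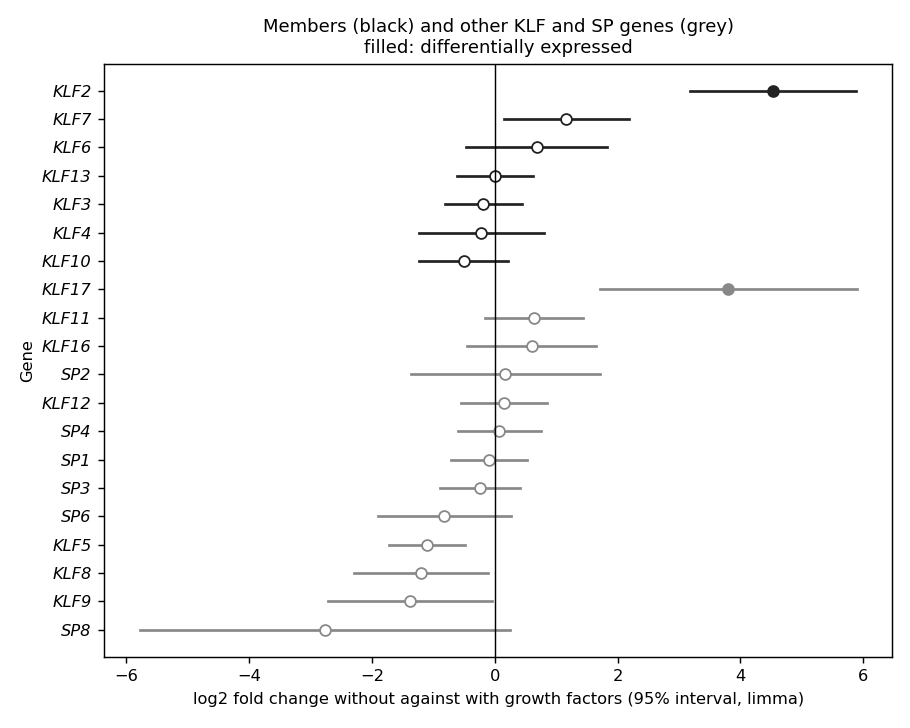
Log2 fold change without against with growth factors (horizontal axis) with its 95% limma interval (bars) for the 7 members (black) and 13 other Krüppel-like and SP genes (grey), listed on the vertical axis. Filled points are genes called differentially expressed, which are KLF2 at 4.54 and KLF17 at 3.80; the KLF17 value depends on the pseudocount because its control samples hold at most 1 read.

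The corepressors, acetyltransferases and ubiquitin ligases through which these factors act showed no called change. All 14 genes of this list, CTBP1, CTBP2, SIN3A, SIN3B and EP300 among them, were tested, 0 were called by limma, 0 had an unadjusted p under 0.05, and log2 fold changes ran from -0.56 to 0.35 with a median of -0.15. Values of 3 of them did not overlap, all lower without growth factors, against 12.1% of all genes in that direction.

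The kinases and transcription factors upstream of KLF2 and KLF4 in endothelium, from MAP3K2 and MAP3K3 through MAPK7 (ERK5) to the MEF2 factors and the class IIa deacetylases that restrain them, were mostly positive in fold change, but were not called. Of 10 genes tested 0 were called by limma and 2, MEF2C and HDAC5, had an unadjusted p under 0.05, the same share as the 20.0% of all genes, 9 were positive and 1 negative in log2 fold change, and their median of 0.39 stood against -0.03 over all genes. MAPK7 itself was at 148, 120 and 252 normalized counts in control and 304, 197 and 148 in depleted samples, overlapping. HDAC5, a deacetylase that restrains MEF2 factors, was at 138, 207 and 318 in control and 288, 465 and 606 in depleted samples, which overlapped (log2 fold change 1.05, limma adjusted p = 0.210). MEF2C, named like HDAC5 after its values were seen, was at 1.25, 1.17 and 16.7 in control and 95.2, 34.1 and 38.01 in depleted samples. These did not overlap, but the log2 fold change of 3.52 (SE 0.93) had a limma adjusted p of 0.0636. MEF2C passed the minimum mean only through its depleted samples, with means of 6.38 in control and 55.8 in depleted samples.

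Genes known as targets of the members moved in both directions. Of these genes 15 were tested, and CCL5, a target of KLF13, is not listed. Called higher were 2 and lower 1, against 4.36% and 1.97% of all genes tested, and the median log2 fold change was -0.21. CCND1, the gene of cyclin D1, was at 1355, 4257 and 735 in control and 11808, 8902 and 10258 in depleted samples (log2 fold change 2.66, SE 0.58, limma adjusted p = 0.0313). SMAD7, an inhibitor of TGFβ signalling and a target of KLF10, was at 124, 102 and 209 in control and 345, 911 and 812 in depleted samples (log2 fold change 2.19, SE 0.46, limma adjusted p = 0.0281). LGALS3, the gene of galectin-3 and a target of KLF3, was at 8329, 6049 and 4901 in control and 2634, 2248 and 2942 in depleted samples (log2 fold change -1.27, SE 0.31, limma adjusted p = 0.0471, and 0.139 with the replicate number as a block). In all 3 the groups did not overlap. Leaving out single samples ended the call of CCND1 for all but control replicates 2 and 3 (adjusted p up to 0.114, without control replicate 1), of SMAD7 for all but control replicate 3 and depleted replicate 1 (up to 0.134, without depleted replicate 3), and of LGALS3 for all but control replicate 3 (up to 0.213, without depleted replicate 2). Without limma's trend all 3 calls were lost (adjusted p of 0.0621 for CCND1, 0.0515 for SMAD7 and 0.0831 for LGALS3), and with edgeR those of CCND1 (0.0640) and LGALS3 (0.0580). THBD, the gene of thrombomodulin and an endothelial target of KLF2, was at 0, 6.44 and 2.95 in control and 4.58, 26.9 and 49.2 in depleted samples and was not called (log2 fold change 2.68, limma adjusted p = 0.202).

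Genes with the pattern most like that of each member over the 6 samples were found as those with the smallest root mean square difference of centred log2(normalized count + 1) among 11682 genes with a mean of at least 100. For KLF2 these were the noncoding MANCR (0.23), CCN1, which encodes a matricellular protein (0.32), and EHD3, which encodes an endocytic recycling protein (0.33). MANCR was at 5.01, 11.7 and 19.7 in control and 220, 285 and 304 in depleted samples. For KLF7 they were the cell adhesion gene L1CAM (0.17), ZFTA (0.18) and the nuclear receptor gene NR1D2 (0.20), each with control replicate 3 above or just below depleted replicate 1. For KLF6 they were BEND3 (0.29), CGAS (0.31) and FSCN1 (0.32). KLF4 was followed most closely by SUB1P3 (0.13), PFDN4 (0.13) and RBM3 (0.14), and KLF10 by CMTM4 (0.085), LITAF (0.090) and PANK3 (0.10). KLF3 was nearest to IRAK1BP1 (0.055), AFTPH (0.067) and SMNDC1 (0.069), and KLF13 to STK24 (0.052), RRAS2P1 (0.053) and DCAF4 (0.055). These distances are a description, and no test was made. Among the members themselves KLF4 and KLF13 (0.34) and KLF3 and KLF10 (0.34) were the nearest pairs, and KLF2 and KLF10 (2.59) the farthest.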

How the data were processed

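RNA-Seq of 6 MCF10A samples was used, 3 with and 3 without growth factors, grouped by their labels. The series description states 2 replicates for each condition, but 3 are labelled and present in the table, and 3 were used. Total RNA was depleted of ribosomal RNA and made into strand-specific libraries, and single-end reads of 100 bases were obtained. The submitters' processing notes name cutadapt 1.6, TopHat2 0.6, HTSeq 0.6, DESeq2 1.8.1 and R 3.2.0 with hg38, and the study used Gencode v22. The deposited values are a normalized signal, counts per gene that the authors divided by DESeq2 size factors, and 100% of them were whole reads within 0.01 read. Gene names and coordinates were taken from Gencode v44, which names 18913 of 19198 identifiers. Every listed gene had at least 3 reads in at least 3 samples, so a gene that is not listed may have had fewer.

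For genes whose mean reached 10, conditions were compared in R 4.3.3 by limma 3.58.1 (lmFit, eBayes with trend) on log2(normalized count + 1), two-sided, with Benjamini-Hochberg adjustment over 16988 genes. A gene was called at an adjusted p under 0.05 with at least a 2-fold change. The code was tested on simulated data. Alternatives were pseudocounts of 0.5 and 10, no filter, a minimum mean of 50, equal totals, quantile normalization, limma without its trend, a replicate block, leaving out each sample, edgeR 4.0.16 (quasi-likelihood, TMM) and DESeq2 1.42.0 on recovered reads, and values corrected for the length and GC content of transcripts. Intervals cover 95%.

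The members and all gene lists were chosen with earlier results of these data known. Named were the members, called and untested genes of the lists, noncoding genes named after a member, and the 3 nearest genes of each member, and other list genes were named after their values were seen. Some list genes are not reported here. Promoter sequences are from RefSeq (GRCh38.p14), which had entries for 5 of 7 members, and motifs were searched on both strands in the 250 bases before each start. Python 3.11.15 with pandas 2.3.3, numpy 2.4.6, scipy 1.17.1 and matplotlib 3.10.9 was used for tables and figures.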

Additional observations from a re-analysis of the deposited data

How the results depend on the processing

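KLF2 was called in each of the 16 alternatives that tested it, with log2 fold changes of 2.89 (pseudocount of 10) to 4.87; a minimum mean of 50 removed it, which left 0 members called higher. Leaving out each sample gave 1 to 2 members called higher, the latter without control replicate 3, and 0 called lower in all 17 alternatives. With single samples left out KLF4 ranged from -0.59 to 0.19, reversed without control replicate 2, and KLF13 from -0.14 to 0.16, reversed without control or depleted replicate 3 (-0.14 and -0.04), and KLF13 was also reversed, to -0.20, with the length and GC correction; the cause was not tested. Over all genes, 741 were called higher and 335 lower. DESeq2 called 1287 and 825, and leaving out each sample gave 307 to 1379 higher and 125 to 1104 lower. The median log2 fold change of all genes ranged from -0.10 (DESeq2) to 0.02 (same total).

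Same-numbered samples did not deviate together (correlations of -0.0726, -0.283 and -0.323 across 16988 genes), so the numbers were not read as pairs. With the replicate block 689 genes were called higher and 278 lower, 1 member was called higher (KLF2, adjusted p = 0.00642, limma) and 0 lower, while KLF17, LGALS3 and KRT19 (adjusted p = 0.0529, limma) lost their calls. At these depths KLF2 and KLF17 in control samples rest on at most 5 reads per library.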
